A study of Homo sapiens with 6 samples.

Results

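The tumour necrosis factor (TNF) superfamily was examined in SW480 liver metastases, through 51 genes chosen by name: 12 ligands, 21 receptors, the 6 TRAF adaptors and 12 ligases, adaptors, kinases and feedback genes that act beneath the receptors. They are 51 of the 58884 gene rows of the count table. SW480 is an established human colorectal cancer cell line. One group, sgCtrl, carried a control guide RNA, and the other, sgITPR3, a guide RNA against ITPR3, the gene of the type 3 inositol trisphosphate receptor, a calcium release channel of the endoplasmic reticulum. The cells were given to NSG mice by way of the portal circulation and grew as liver metastases. NSG hosts lack functional T, B and NK cells but keep mouse macrophages and neutrophils. Tumour cells were taken from the digested livers with a density gradient and a kit that depletes mouse cells. Each group had 3 libraries of 3' tags from polyadenylated RNA. The labels do not say whether each library came from its own animal or whether the edited cells were a pool or 1 clone, so the p-values below rest on the spread among these libraries alone. Per the labels, loss of the protein was checked by Western blot.

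Libraries held 19140055 to 23943797 counts. Levels below are CPM, the count divided by the scaled library size and multiplied by 1000000, so that 1 count is 0.0405 to 0.0538 CPM, and are listed in the order of replicates 1, 2 and 3. ITPR3 itself was at 108, 93.9 and 94.2 CPM in sgCtrl and 39.4, 41.03 and 46.2 CPM in sgITPR3 (log2 fold change -1.22 with SE 0.0831; edgeR adjusted p = 1.28e-07). The sources used here do not give where its guide cuts, so a tag from the 3' end checks the labels only in part. Of 7 colorectal epithelial markers, 6 had more than 3 counts in every library, all but CDX1, and the summed level of the list was 2407 to 2796 CPM in sgCtrl and 1987 to 2043 CPM in sgITPR3. Leukocytes are a main source of TNF ligands in tissue. The 7 macrophage markers summed to 1.04 to 1.56 CPM in sgCtrl and 1.03 to 1.74 CPM in sgITPR3, with C1QA and C1QB at 0 in all libraries. The T and NK cell markers CD2 and NKG7 were also at 0, and CD3E was at most 0.694 CPM, while CD3D was at 98.2, 105 and 92.5 CPM in sgCtrl and 143, 149 and 115 CPM in sgITPR3, higher in each sgITPR3 library. The 7 hepatocyte markers summed to 66.04 to 246 CPM in sgCtrl and 147 to 294 CPM in sgITPR3. ALB was at 33.8, 169.7 and 21.6 CPM in sgCtrl and 232, 153 and 111 CPM in sgITPR3, with sgCtrl replicate 2 inside the sgITPR3 range. Means of ALB, APOA1, TTR, FGB and TF were 2.04-fold to 2.24-fold higher in sgITPR3 and that of AHSG 1.35-fold, each with overlapping groups. Of these, only APOA1 passed as higher (edgeR adjusted p = 0.0414). SERPINA1 alone of the list was lower in sgITPR3, at 45.3, 45.8 and 38.9 CPM against 16.4, 12.4 and 12.9 CPM (log2 fold change -1.64, edgeR adjusted p = 1.51e-07). Low sums also differed for other lists, each carried by 1 or 2 genes. The 4 erythroid markers were at 0.587 to 1.34 CPM in sgCtrl and 4.84 to 6.39 CPM in sgITPR3, nearly all HBA1 and HBA2, with HBB at 0 to 2 counts. The 6 stellate cell and fibroblast markers were at 6.03 to 6.51 CPM in sgCtrl and 8.61 to 10.7 CPM in sgITPR3 and were mostly COL1A1, with LUM at 0. The 3 neutrophil markers were at 9.82 to 15.6 CPM in sgCtrl and 3.52 to 7.25 CPM in sgITPR3, nearly all S100A9, with S100A8 at most 0.309 CPM and CSF3R at 0 in 5 of 6 libraries. The 4 endothelial markers were at 0.298 to 0.645 CPM in sgCtrl and 0.202 to 0.670 CPM in sgITPR3. All of these markers are human genes, while cells of the host are of mouse, and how mouse reads were handled is not given. Low sums therefore do not show that host cells were absent. The part of such cells in the results below was not tested.

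Ligands of the TNF superfamily are mostly trimers on the surface of a cell or shed from it, and they gather receptors into clusters on the responding cell. Receptors with a death domain can recruit TRADD, FADD and caspases, and most others bind TRAF adaptors, which bring in the ubiquitin ligases BIRC2 and BIRC3. From there the canonical route runs through RIPK1 and the IKK complex (CHUK, IKBKB, IKBKG) to NF-kB, and the non-canonical route through MAP3K14, the kinase NIK, which TRAF2, TRAF3 and the BIRC ligases mark for degradation in resting cells. In carcinoma cells these receptors are known for control of survival, inflammation and cell death.

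More of the members were lower than higher when ITPR3 was targeted. The low-count filter left 39 of the 51 members for testing, of which 19 fell, 3 rose and 17 did not pass the test (edgeR quasi-likelihood, adjusted p under 0.05 over all genes). Across all 15804 genes tested, 11.9% passed as lower and 11.6% as higher, 23.5% in all. Among the tested members the shares were 48.7% lower and 7.69% higher. Their median log2 fold change (sgITPR3 minus sgCtrl) was -0.30, against 0.00086 over all genes tested. The filter asked for as many libraries over its count limit as a group holds, 3, whichever group they came from. CD40 passed it through its sgITPR3 level alone. Every sgITPR3 library lay below every sgCtrl library for 21 of the 39, and above for 6. Over all genes tested these shares were 19.7% and 19.6%. The members were chosen with earlier results of these data known. Their shares, here and by role below, are therefore a description and no test of the family. Leading the falls were TNF, TNFRSF9, BIRC3 and TNFRSF12A, and the rises were those of TNFSF10, TNFRSF11B and TRAF4. In bulk RNA, fewer expressing cells and less RNA per cell cannot be told apart.

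**Figure D1:**
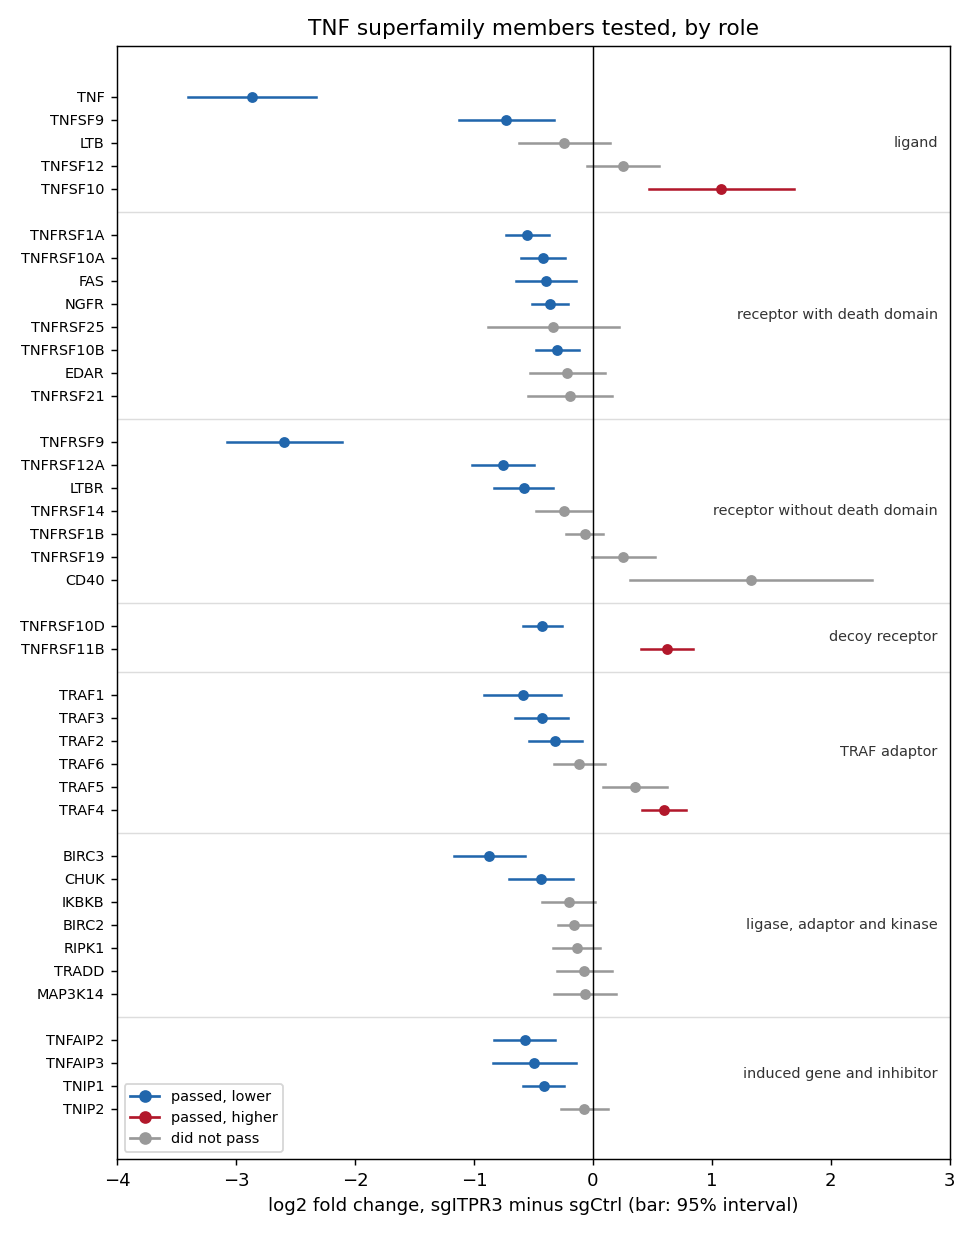
Log2 fold change of sgITPR3 minus sgCtrl (x axis) for the 39 members tested (y axis), grouped by role, with 95% intervals from edgeR over 3 libraries a group. Blue members passed as lower, red as higher and grey did not pass; TNF (-2.87) and TNFRSF9 (-2.59) lie far to the left of the others.

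The remaining 12 members were too low to test. TNFSF11, the ligand RANKL, and the decoy receptor genes TNFRSF6B and TNFRSF10C had no count in any library, where a floor of 3 counts allows up to 0.121 to 0.161 CPM. LTA, TNFSF4, TNFSF13, TNFSF13B, TNFSF14, TNFSF15, TNFRSF11A, EDA2R and IKBKG had from 0 to 19 counts in a library. Absence of counts is uncertain for some of them. In GENCODE 29, all 500 of the last 500 exonic bases of TNFRSF6B are shared with the readthrough gene RTEL1-TNFRSF6B, and 493 of those of TNFSF13 with TNFSF12-TNFSF13. IKBKG, the regulatory subunit NEMO, has a near-identical pseudogene copy, and the sources used here do not say how reads with several alignments were counted.

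NF-kB is the best known regulator of several of these genes, so the letters before their starts were read. RefSeq promoter windows were at hand for 39 of the 51 members (60 windows, since some genes have several starts), and TNFRSF12A was not among them. The 250 bases before each start were searched on both strands for the kB consensus and for TGANTCA, the core bound by AP-1. A kB match was found in 6 of the 14 members that fell and have a window (TNFRSF9, BIRC3, TNFAIP3, TNIP1, TRAF3 and FAS), in 2 of 12 that did not pass (LTB and TNFRSF14), in 3 of 11 untested (LTA, TNFSF13 and TNFSF14) and in 0 of 2 that rose. By window the share was 31.6% for the members that fell, 15.8% for those that did not pass, 20% for those not tested and 5.21% over all 35116 windows. TGANTCA was found in 2 of the 14 members that fell (TNFRSF9 and FAS), in 0 of 12 that did not pass, in 4 of 11 untested (TNFSF14, TNFSF15, EDA2R and IKBKG) and in 6.57% of all windows. The kB shares rest on 6 of 19 windows of members that fell, 3 of 19 that did not pass and 4 of 20 untested. Members were chosen by name from a pathway tied to NF-kB, so a share above that of all windows is no test of NF-kB. These are matches of letters and not measured binding, and windows of a gene can overlap. Whether NF-kB has a part in the falls was not tested.

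Printed here are letters of the members with the largest fall (TNF, TNFRSF9), of falling members with a pair of kB matches (BIRC3, TNFAIP3) and of the adaptor that rose, TRAF4. Each run is 5' to 3' on the strand of the gene (GRCh38.p14, RefSeq), with kB and TGANTCA matches in capitals. For TNF, BIRC3 and TRAF4 it begins 250 bases before the RefSeq start and ends before any exon of the gene in GENCODE 29. In TNFRSF9 and TNFAIP3 the matches fall in an exon of a longer GENCODE 29 transcript, and only the stretches around them are given.
TNF, chr6:31575315-31575564, plus strand: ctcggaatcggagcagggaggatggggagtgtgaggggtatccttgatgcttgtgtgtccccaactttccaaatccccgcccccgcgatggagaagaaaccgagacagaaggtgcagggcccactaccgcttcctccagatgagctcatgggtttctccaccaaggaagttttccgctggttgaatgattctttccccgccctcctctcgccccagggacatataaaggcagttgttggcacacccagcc
TNFRSF9, chr1:7940897-7940919, minus strand: tgtggtGGGAATTTCCCatgaga
TNFRSF9, chr1:7940869-7940891, minus strand: cccctggcTGAGTCAccgcactc
BIRC3, chr11:102317234-102317449, plus strand: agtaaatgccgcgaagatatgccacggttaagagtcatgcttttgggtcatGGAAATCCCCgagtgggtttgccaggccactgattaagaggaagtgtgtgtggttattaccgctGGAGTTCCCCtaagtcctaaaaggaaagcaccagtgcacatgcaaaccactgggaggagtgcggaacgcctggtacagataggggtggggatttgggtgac
TNFAIP3, chr6:137867191-137867214, plus strand: tGGAAAGTCCCgtGGAAATCCCCg
TRAF4, chr17:28743761-28743983, plus strand: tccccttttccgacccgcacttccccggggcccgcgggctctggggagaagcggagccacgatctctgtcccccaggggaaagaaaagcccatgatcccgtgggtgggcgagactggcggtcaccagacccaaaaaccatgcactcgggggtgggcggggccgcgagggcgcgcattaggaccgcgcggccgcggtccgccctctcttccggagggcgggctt
In TNFRSF9 the first stretch holds a pair of overlapping kB matches, from base 74 to 64 before the start, and the second TGANTCA at bases 44 to 38. BIRC3 has its kB matches at bases 199 to 190 and 135 to 126, and TNFAIP3 at 67 to 58 and 55 to 46. The windows of TNF and TRAF4 hold neither motif, which says only that these letters are not there.

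Among the ligands, 5 of 12 could be tested: TNF and TNFSF9 fell, TNFSF10 rose, and LTB and TNFSF12 did not pass. These shares, 40% lower and 20% higher, stand against 11.9% and 11.6% of all genes tested. TNF (chromosome 6, 31575567 to 31578336), the founding inflammatory cytokine of the family, was at 9.57, 7.91 and 7.74 CPM in sgCtrl and 1.34, 1.42 and 0.619 CPM in sgITPR3. The sgITPR3 values rest on 31, 35 and 12 counts against 178, 159 and 145 in sgCtrl. All 3 sgITPR3 libraries were far below the lowest sgCtrl library, a 7.48-fold lower mean (log2 fold change -2.87 with SE 0.251; edgeR adjusted p = 1.59e-06). TNFSF9 encodes the ligand of the costimulatory receptor TNFRSF9, and was at 7.10, 5.72 and 5.82 CPM against 4.40, 3.32 and 3.51 CPM. Its groups did not overlap (log2 fold change -0.73 with SE 0.187; edgeR adjusted p = 0.0113), but the call ended without sgCtrl replicate 1 or sgITPR3 replicate 2 (edgeR adjusted p = 0.0530 and 0.0557). TNFSF10, the death ligand TRAIL, went the other way, from 0.861, 1.79 and 1.602 CPM to 2.89, 2.95 and 3.20 CPM. That is 2.13-fold higher at a low level (log2 fold change 1.08 with SE 0.286; edgeR adjusted p = 0.0136), with every sgITPR3 library above every sgCtrl library. It too lost its call without sgCtrl replicate 1 (edgeR adjusted p = 0.0528), the library in which it was lowest. With the ALB level as a covariate neither TNFSF9 (log2 fold change -0.71, edgeR adjusted p = 0.0694) nor TNFSF10 (log2 fold change 0.91, edgeR adjusted p = 0.117) passed, although their fold changes stayed close to those above.

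LTB, which joins LTA in the surface lymphotoxin trimer, was at 6.99, 10.9 and 7.53 CPM in sgCtrl and 6.91, 8.21 and 6.39 CPM in sgITPR3. Its groups overlapped and it did not pass (log2 fold change -0.24, edgeR adjusted p = 0.364; 95% interval -0.63 to 0.14). TNFSF12, the ligand TWEAK, was at 7.74, 8.30 and 6.46 CPM against 9.07, 9.23 and 8.56 CPM. Each sgITPR3 library was above each sgCtrl library, yet the difference did not pass (log2 fold change 0.25, edgeR adjusted p = 0.217; 95% interval -0.05 to 0.56). Of the last 500 exonic bases of TNFSF12, 71 lie over exons of AC016876.3 on the other strand. TNF, LTA and LTB are neighbours on chromosome 6, with 1243 bases between LTA and TNF and 2189 between TNF and LTB. Of the 3, TNF alone was called, LTB did not pass and LTA had 14, 2 and 15 counts in sgCtrl and 6, 10 and 6 in sgITPR3.

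Death domain receptors were all 8 measured well enough to test, of which 5 fell, 0 rose and 3 did not pass. That is 62.5% lower and 0% higher, against 11.9% and 11.6% of all genes tested. TNFRSF1A (chromosome 12, 6328757 to 6342114), the widely expressed TNF receptor that recruits TRADD and RIPK1, was at 87.8, 75.4 and 73.1 CPM in sgCtrl and 56.4, 49.8 and 54.95 CPM in sgITPR3. The groups stood well apart, 1.47-fold lower in sgITPR3 (log2 fold change -0.55 with SE 0.0838; edgeR adjusted p = 2.70e-04). TNFRSF10A and TNFRSF10B encode the death receptors of TRAIL. The former was at 76.05, 68.7 and 85.4 CPM against 54.02, 55.4 and 62.5 CPM (log2 fold change -0.42 with SE 0.0880; edgeR adjusted p = 0.00320). The latter was at 49.3, 49.8 and 44.8 CPM against 42.1, 39.2 and 35.7 CPM (log2 fold change -0.30 with SE 0.0841; edgeR adjusted p = 0.0190). Neither overlapped between groups. Both share bases of their 3' ends with genes on the opposite strand (224 of the last 500 exonic bases of TNFRSF10A with TNFRSF10A-AS1, and 67 of those of TNFRSF10B with RHOBTB2), so without a known strand setting their counts are uncertain to that extent. NGFR, the low-affinity neurotrophin receptor, was at 85.1, 80.05 and 90.1 CPM in sgCtrl and 63.4, 67.7 and 67.5 CPM in sgITPR3, lower in each sgITPR3 library (log2 fold change -0.36 with SE 0.0712; edgeR adjusted p = 0.00212). FAS, the receptor of FASLG, was at 17.3, 14.2 and 16.1 CPM against 12.6, 12.6 and 10.9 CPM (log2 fold change -0.39 with SE 0.118; edgeR adjusted p = 0.0260).

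For 2 of these 5 genes the call ended when a single library was left out. FAS lost its call without sgCtrl replicate 1, sgCtrl replicate 3, sgITPR3 replicate 2 or sgITPR3 replicate 3 (edgeR adjusted p = 0.0540 to 0.0900). TNFRSF10B lost its call without sgCtrl replicate 1, sgITPR3 replicate 2 or sgITPR3 replicate 3 (edgeR adjusted p = 0.0516 to 0.0780). With the ALB level as a covariate, TNFRSF1A and TNFRSF10B kept their calls and 3 ended: TNFRSF10A (log2 fold change -0.24, edgeR adjusted p = 0.102), NGFR (log2 fold change -0.27, edgeR adjusted p = 0.0540) and FAS (log2 fold change -0.31, edgeR adjusted p = 0.244). The 3 death domain receptors that did not pass were also below 0 in log2 fold change. EDAR, which shapes hair, teeth and skin glands, was at 53.5, 61.9 and 47.8 CPM in sgCtrl and 61.4, 41.6 and 37.3 CPM in sgITPR3. Its sgITPR3 replicate 1 lay within the sgCtrl range (log2 fold change -0.22, edgeR adjusted p = 0.316), and without that library it was called lower (log2 fold change -0.46, edgeR adjusted p = 0.0128). TNFRSF21, death receptor DR6, was at 6.99, 5.67 and 6.83 CPM against 6.43, 5.42 and 5.15 CPM, with overlapping groups (log2 fold change -0.19, edgeR adjusted p = 0.438). TNFRSF25, the receptor of TNFSF15, was at 4.73, 3.78 and 2.40 CPM against 3.24, 2.39 and 3.04 CPM (log2 fold change -0.34, edgeR adjusted p = 0.381), and 301 of its last 500 exonic bases lie over exons of ESPN on the other strand.

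Receptors without a death domain included the largest fall of any receptor. Of 9 members 7 were tested, and 3 fell, 0 rose and 4 did not pass (42.9% lower and 0% higher, against 11.9% and 11.6% of all genes). TNFRSF9 (chromosome 1, 7915894 to 7943165), known as an activation marker and costimulatory receptor of T cells, was at 14.3, 8.85 and 14.7 CPM in sgCtrl and 2.29, 1.58 and 2.42 CPM in sgITPR3. It was 6.02-fold lower in sgITPR3, and even the lowest sgCtrl library, replicate 2, was above all sgITPR3 libraries (log2 fold change -2.59 with SE 0.225; edgeR adjusted p = 1.48e-06). TNFRSF12A (chromosome 16, 3018445 to 3022383) encodes Fn14, the receptor of TWEAK, a small receptor that signals through TRAFs to both NF-kB routes. It was at 84.98, 57.5 and 78.1 CPM in sgCtrl and 41.6, 39.7 and 49.4 CPM in sgITPR3, with sgCtrl replicate 2 nearest to the sgITPR3 libraries (log2 fold change -0.76 with SE 0.123; edgeR adjusted p = 5.02e-04). LTBR (chromosome 12, 6375045 to 6391571), the lymphotoxin receptor and a classical trigger of the non-canonical route, was at 29.7, 28.6 and 33.8 CPM against 24.4, 17.97 and 19.3 CPM. All sgITPR3 libraries lay below the sgCtrl libraries (log2 fold change -0.58 with SE 0.116; edgeR adjusted p = 0.00232).

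TNFRSF1B, the TNF receptor without a death domain, did not pass. Its level was 240.0, 248 and 273 CPM in sgCtrl and 249, 227 and 249 CPM in sgITPR3, and the 95% interval of its log2 fold change was -0.22 to 0.08 (log2 fold change -0.07, edgeR adjusted p = 0.517). The ratio of TNFRSF1A to TNFRSF1B counts within a library was 0.366, 0.304 and 0.268 in sgCtrl and 0.227, 0.219 and 0.220 in sgITPR3, lower in every sgITPR3 library. The exact two-sided permutation p was 0.1, the smallest that 3 against 3 libraries can give. It is 1 of 3 such ratios, each chosen after the values were seen, and the adjusted p was also 0.1. The order of the ratios was set by levels already known, so this p is no test of unequal change. The ratio adds no evidence beyond the levels of the 2 genes. TNFRSF14, the receptor HVEM of TNFSF14, was at 14.7, 16.2 and 17.6 CPM against 13.9, 13.8 and 13.04 CPM. Its groups did not overlap but it did not pass (log2 fold change -0.25, edgeR adjusted p = 0.117). TNFRSF19, known as TROY and as a Wnt-responsive gene of the gut, was at 31.9, 27.7 and 28.6 CPM against 35.7, 41.8 and 27.5 CPM (log2 fold change 0.26, edgeR adjusted p = 0.158). Here sgITPR3 replicate 3 was below the sgCtrl libraries and the others above, and without it the gene was called higher (log2 fold change 0.40, edgeR adjusted p = 0.0198). CD40, a receptor of antigen-presenting cells, had 3, 10 and 7 counts in sgCtrl and 23, 19 and 17 in sgITPR3. It was above sgCtrl in each sgITPR3 library but did not pass (log2 fold change 1.33, edgeR adjusted p = 0.0572), and was called higher without sgCtrl replicate 2 (edgeR adjusted p = 0.0388).

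The decoy receptors moved in opposite directions. TNFRSF10D binds TRAIL with a truncated death domain, and was at 38.9, 38.3 and 40.3 CPM in sgCtrl and 29.1, 29.3 and 29.1 CPM in sgITPR3. Replicates agreed closely in both groups and did not overlap (log2 fold change -0.43 with SE 0.0772; edgeR adjusted p = 0.00114). TNFRSF11B (chromosome 8, 118923557 to 118952200) encodes osteoprotegerin, a secreted decoy for RANKL and TRAIL. It rose from 16.4, 17.6 and 17.2 CPM to 28.2, 27.6 and 22.9 CPM, 1.54-fold (log2 fold change 0.62 with SE 0.103; edgeR adjusted p = 5.62e-04). Each sgITPR3 library was above the highest sgCtrl library. TNFRSF10A, TNFRSF10B and TNFRSF10D lie in 1 cluster on chromosome 8, and all 3 fell by 0.30 to 0.43 on the log2 scale. The remaining member of that cluster, TNFRSF10C, had no counts.

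**Figure D2:**
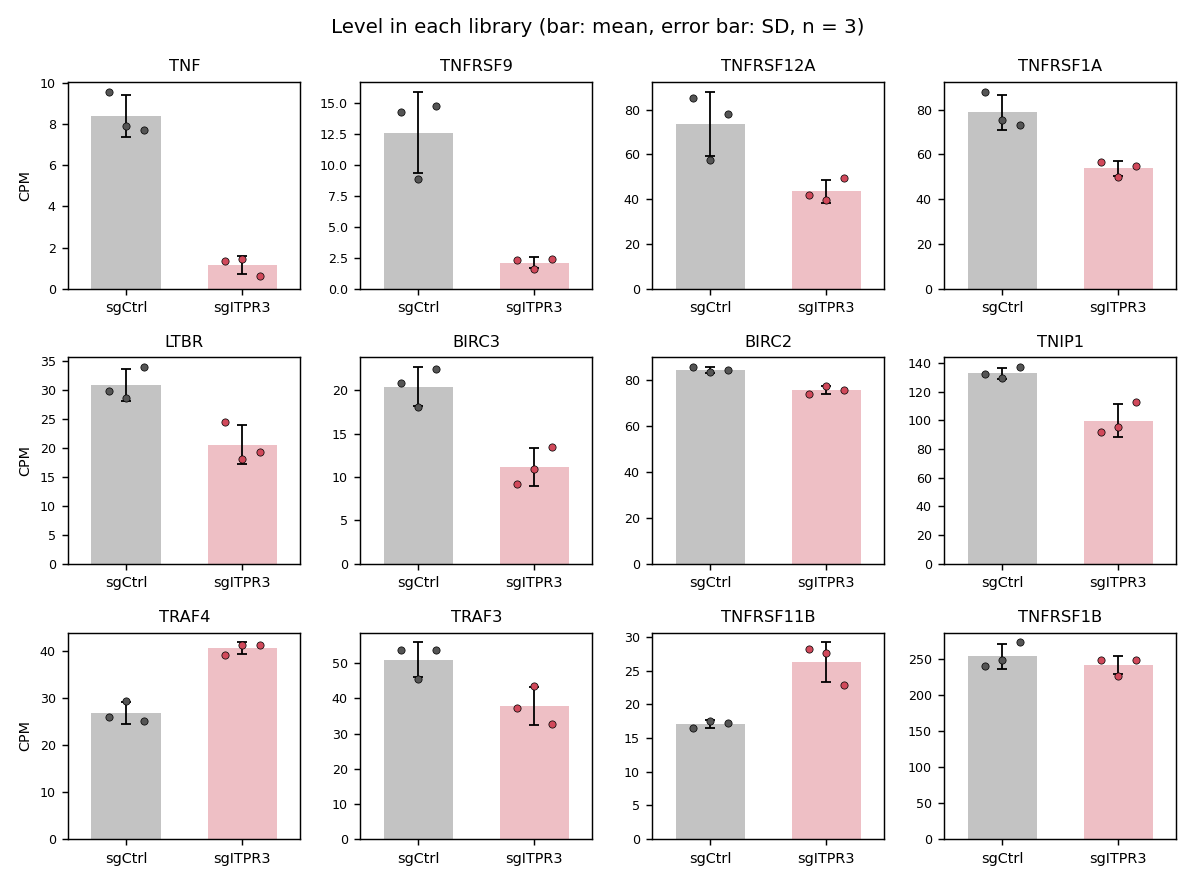
Level in CPM (y axis, from 0) of 12 members in the 3 sgCtrl and 3 sgITPR3 libraries; points are libraries, bars means and error bars SD. TNF and TNFRSF9 drop to a small part of their sgCtrl level, TRAF4 and TNFRSF11B are above sgCtrl in every sgITPR3 library, and TNFRSF1B overlaps.

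Set side by side, ligands and receptors did not change as pairs in a single way. TNFSF9 and its receptor TNFRSF9 both fell (log2 fold changes -0.73 and -2.59). TNF fell with TNFRSF1A (-2.87 and -0.55), while TNFRSF1B was at -0.07 and did not pass. The TRAIL gene TNFSF10 rose (1.08), its receptors TNFRSF10A, TNFRSF10B and TNFRSF10D fell (-0.42, -0.30 and -0.43) and its soluble decoy TNFRSF11B rose (0.62). Of these 5 genes, TNFRSF10D and TNFRSF11B kept their calls in all 13 alternatives. The calls of TNFSF10 and TNFRSF10A ended with the ALB covariate (edgeR adjusted p = 0.117 and 0.102), that of TNFSF10 also without sgCtrl replicate 1, and that of TNFRSF10B without sgCtrl replicate 1, sgITPR3 replicate 2 or sgITPR3 replicate 3 (edgeR adjusted p = 0.0516 to 0.0780). TNFRSF12A fell (-0.76) where its ligand TNFSF12 had a value above 0 that did not pass (0.25). For LTBR, which fell (-0.58), the ligand gene LTB was at -0.24 and did not pass. FASLG, also outside the threshold, was at 0.753, 0.547 and 0.481 CPM in sgCtrl and 0.777, 0.850 and 0.773 CPM in sgITPR3 (log2 fold change 0.43, edgeR adjusted p = 0.487).

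**Figure D3:**
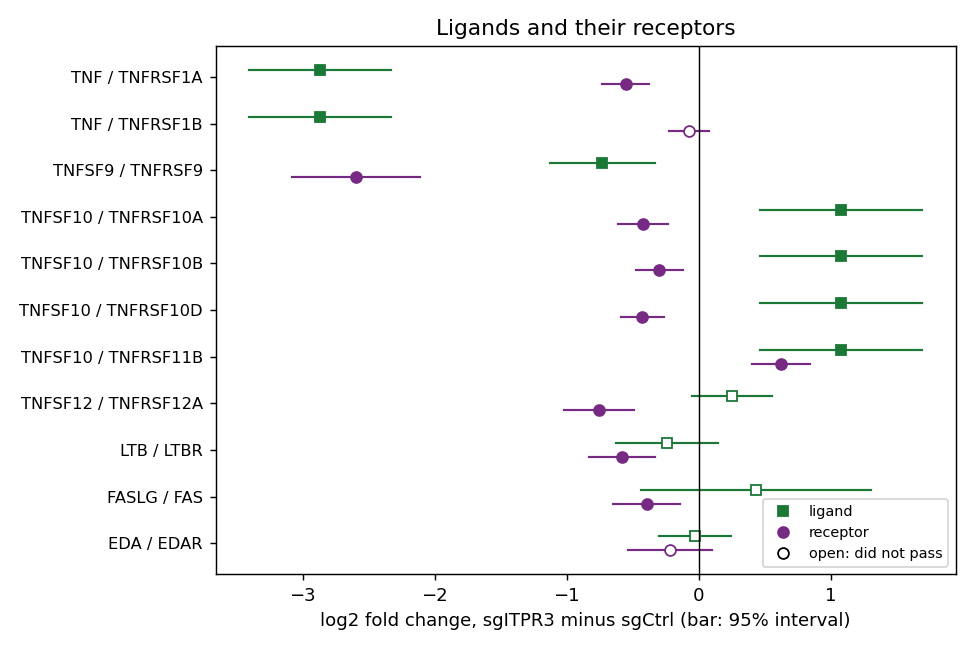
Log2 fold change of sgITPR3 minus sgCtrl (x axis) with 95% intervals for 11 ligand and receptor pairs (y axis); squares are ligands, circles receptors and open symbols did not pass. The TNFSF10 square lies at 1.08, to the right of 0, and its receptors TNFRSF10A, TNFRSF10B and TNFRSF10D to the left.

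All 6 TRAF adaptors were tested: TRAF1, TRAF2 and TRAF3 fell, TRAF4 rose, and TRAF5 and TRAF6 did not pass. In shares this is 50% lower and 16.7% higher, against 11.9% and 11.6% of all genes tested. TRAF1, itself an NF-kB target and a partner of TRAF2, was at 7.74, 7.31 and 8.38 CPM in sgCtrl and 5.48, 5.22 and 4.85 CPM in sgITPR3 (log2 fold change -0.59 with SE 0.151; edgeR adjusted p = 0.0114). TRAF3, which holds MAP3K14 for degradation, was at 53.9, 45.5 and 53.9 CPM against 37.3, 43.4 and 32.7 CPM. The highest sgITPR3 library, replicate 2, came close to the lowest sgCtrl library, replicate 2 (log2 fold change -0.43 with SE 0.104; edgeR adjusted p = 0.00780). TRAF2, the ring-finger adaptor that recruits BIRC2 and BIRC3, was at 24.04, 23.9 and 19.97 CPM against 17.1, 17.97 and 19.4 CPM, with groups that touched but did not overlap (log2 fold change -0.32 with SE 0.104; edgeR adjusted p = 0.0389). Its call ended without sgCtrl replicate 1, sgCtrl replicate 2, sgITPR3 replicate 1 or sgITPR3 replicate 2 (edgeR adjusted p = 0.0854 to 0.137). TRAF4 (chromosome 17, 28743984 to 28750958), the member found at cell junctions and often raised in carcinomas, was at 25.9, 29.4 and 25.04 CPM in sgCtrl and 38.99, 41.2 and 41.2 CPM in sgITPR3. It rose 1.51-fold, and all sgITPR3 libraries were above all sgCtrl libraries (log2 fold change 0.59 with SE 0.0863; edgeR adjusted p = 1.90e-04).

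TRAF5, close in structure to TRAF3, was at 11.5, 12.2 and 9.40 CPM in sgCtrl and 13.2, 14.2 and 14.8 CPM in sgITPR3. Its groups did not overlap and it narrowly missed the threshold (log2 fold change 0.35, edgeR adjusted p = 0.0561), passing as higher without sgCtrl replicate 2 (edgeR adjusted p = 0.0303) and with the filter of 1 CPM in 3 libraries (0.0496). TRAF6, which serves interleukin and Toll-like receptors, was at 21.6, 21.3 and 22.7 CPM against 21.1, 21.4 and 17.99 CPM with overlap (log2 fold change -0.11, edgeR adjusted p = 0.446). Within a library the ratio of TRAF4 to TRAF3 counts was 0.481, 0.646 and 0.465 in sgCtrl and 1.05, 0.949 and 1.26 in sgITPR3. Every sgITPR3 ratio was above every sgCtrl ratio (exact two-sided permutation p = 0.1, the smallest possible here; adjusted p = 0.1 over 3 ratios). TRAF4 was higher and TRAF3 lower in every sgITPR3 library, so this order and its p were fixed before the test. The pair was also chosen after the values were seen, and its ratio adds no evidence beyond the 2 calls. With the ALB level as a covariate, TRAF4 kept its call (log2 fold change 0.50, edgeR adjusted p = 0.00567) and none of TRAF1, TRAF2 and TRAF3 passed (edgeR adjusted p = 0.111, 0.0795 and 0.119). Their log2 fold changes were -0.52, -0.38 and -0.32 in that fit, still below 0 and for TRAF2 larger in size than without the covariate.

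Of the ligases, adaptors and kinases next in line, 7 of 8 were tested, and BIRC3 and CHUK fell, 0 rose and 5 did not pass. Thus 28.6% were lower and 0% higher, against 11.9% and 11.6% of all genes tested. BIRC3 (chromosome 11, 102317450 to 102339403), a ubiquitin ligase that NF-kB itself induces and whose kB matches are printed above, was at 20.9, 18.05 and 22.4 CPM in sgCtrl and 9.15, 10.9 and 13.5 CPM in sgITPR3. It was 1.83-fold lower with no overlap (log2 fold change -0.87 with SE 0.139; edgeR adjusted p = 4.10e-04). Its paralog BIRC2 begins 7808 bases beyond the end of BIRC3 on chromosome 11, and was at 85.6, 83.4 and 84.4 CPM against 74.2, 77.3 and 75.6 CPM. BIRC2 was lower in each sgITPR3 library, by a small amount that did not pass (log2 fold change -0.16, edgeR adjusted p = 0.0928; 95% interval -0.30 to -0.02). The ratio of BIRC3 to BIRC2 counts was 0.244, 0.216 and 0.266 in the sgCtrl libraries and 0.123, 0.141 and 0.179 in the sgITPR3 libraries. No sgITPR3 ratio reached the lowest sgCtrl ratio (exact two-sided permutation p = 0.1, the smallest possible; adjusted p = 0.1 over 3 ratios). This pair too was chosen after the values were seen, so the order of its ratios was already known. The ratio adds no evidence beyond the levels of the 2 genes.

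CHUK, the kinase IKK-alpha that acts on the NFKB2 protein in the non-canonical route, was at 27.2, 23.4 and 18.95 CPM in sgCtrl and 18.1, 17.6 and 15.5 CPM in sgITPR3. sgCtrl replicate 3 was close to the sgITPR3 libraries (log2 fold change -0.44 with SE 0.125; edgeR adjusted p = 0.0201), and the call ended without sgCtrl replicate 1, sgITPR3 replicate 2 or sgITPR3 replicate 3 (edgeR adjusted p = 0.0508 to 0.0914). CHUK shares 37 of its last 500 exonic bases with ERLIN1 on the same strand. MAP3K14, the NIK kinase, was at 11.5, 12.7 and 11.3 CPM against 12.01, 10.2 and 11.7 CPM, with a log2 fold change of -0.07 (95% interval -0.33 to 0.19, edgeR adjusted p = 0.724). Of its last 500 exonic bases, 273 lie over exons of the antisense gene MAP3K14-AS1. IKBKB, the kinase IKK-beta of the canonical route, was at 21.6, 24.3 and 22.05 CPM against 17.5, 19.8 and 21.7 CPM and overlapped (log2 fold change -0.21, edgeR adjusted p = 0.174). RIPK1, the scaffold kinase at TNFRSF1A, was at 37.1, 33.2 and 40.4 CPM in sgCtrl and 34.3, 31.2 and 35.1 CPM in sgITPR3 (log2 fold change -0.14, edgeR adjusted p = 0.305). TRADD, the adaptor between TNFRSF1A and RIPK1, was at 18.6, 16.2 and 18.05 CPM against 17.7, 17.6 and 14.8 CPM (log2 fold change -0.07, edgeR adjusted p = 0.681). For RIPK1 and TRADD the groups overlapped, and their 95% intervals ran over -0.33 to 0.06 and -0.31 to 0.16.

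TNF-induced genes and inhibitors that close the loop were lower in 3 of 4 cases (75%, against 11.9% of all genes tested), and TNIP2 did not pass. TNFAIP2, a gene first found by its induction by TNF, was at 38.9, 29.8 and 32.7 CPM in sgCtrl and 25.4, 23.6 and 18.9 CPM in sgITPR3 (log2 fold change -0.57 with SE 0.120; edgeR adjusted p = 0.00325). TNIP1, which encodes an A20-binding inhibitor of NF-kB, was at 132, 129.7 and 137 CPM against 91.6, 95.2 and 113 CPM (log2 fold change -0.41 with SE 0.0805; edgeR adjusted p = 0.00199). Neither overlapped between groups, and in both genes sgITPR3 replicate 3 stood apart from replicates 1 and 2, lower for TNFAIP2 and higher for TNIP1. TNFAIP3, the ubiquitin-editing enzyme A20, was at 6.94, 6.17 and 6.83 CPM against 5.01, 4.25 and 4.90 CPM. Each sgITPR3 library was lower, but the call was marginal (log2 fold change -0.49 with SE 0.163; edgeR adjusted p = 0.0397). It ended in 5 of the 6 fits that left out a library (edgeR adjusted p = 0.0654 to 0.148, all but that without sgCtrl replicate 2), with DESeq2 (adjusted p = 0.0592) and with no low-count filter (edgeR adjusted p = 0.0525). TNIP2, a relative of TNIP1, was at 24.6, 22.9 and 21.8 CPM in sgCtrl and 21.8, 23.03 and 21.1 CPM in sgITPR3 with overlapping groups (log2 fold change -0.07, edgeR adjusted p = 0.618).

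The rest of the pathway was read from 6 lists of genes around these members. Of 15 other ligands, receptors and the EDAR adaptor, 8 were tested, with 1 lower, 2 higher and 5 that did not pass. The lower share, 12.5%, was near the 11.9% of all genes, and the higher share was 25% against 11.6%. CD70 (chromosome 19, 6583183 to 6604103), the ligand of CD27 on lymphocytes and the neighbour of TNFSF9 at a distance of 47255 bases, was at 71.6, 44.1 and 79.7 CPM in sgCtrl and 11.7, 11.01 and 12.99 CPM in sgITPR3. It was 5.48-fold lower, with every sgITPR3 library below the lowest sgCtrl library, replicate 2 (log2 fold change -2.46 with SE 0.173; edgeR adjusted p = 1.82e-07). EDARADD, the adaptor of EDAR, rose from 77.4 ± 5.24 to 109 ± 6.79 CPM (SD, n = 3; log2 fold change 0.49, edgeR adjusted p = 2.80e-04). TNFRSF18, a costimulatory receptor, rose from 0.513 ± 0.335 to 2.01 ± 0.436 CPM (log2 fold change 1.94, edgeR adjusted p = 0.00394) and met the low-count filter through sgITPR3.

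Few genes of the ubiquitin and kinase machinery at the receptor complexes passed. Of 18 genes 16 were tested, and 1 fell, 0 rose and 15 did not pass, a share of 6.25% against 23.5% of all genes. The gene that fell was TBK1, an IKK-related kinase, from 27.3 ± 1.87 to 19.4 ± 1.08 CPM (log2 fold change -0.49, edgeR adjusted p = 0.00168). Of 10 genes of NF-kB subunits and IkB proteins, 5 fell, 1 rose and 4 did not pass, shares of 50% and 10% against 11.9% and 11.6% of all genes. The gene that rose, named after its value was seen, was NFKBIZ, from 6.51 ± 0.720 to 11.2 ± 1.37 CPM (log2 fold change 0.78, edgeR adjusted p = 0.00148). BCL3 fell from 26.8 ± 1.27 to 11.2 ± 0.588 CPM, and the inhibitor NFKBIA from 119 ± 10.4 to 76.2 ± 1.73 CPM. RELB and NFKB2, the pair that the non-canonical route activates, fell with log2 fold changes of -0.98 and -0.71. With the ALB covariate 3 of these 5 falls passed: NFKB2 was at -0.36 (edgeR adjusted p = 0.0623), and NFKBIB, named for this loss, was at -0.23 (edgeR adjusted p = 0.210) against -0.38 without it. The NFKBIB call also ended without sgITPR3 replicate 1 or sgITPR3 replicate 2 (edgeR adjusted p = 0.0584 to 0.0590). The median of the 10 was -0.37.

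TNF-induced targets of NF-kB could be tested for 11 of 19 genes, of which 7 fell, 1 rose (CCL20, with 2, 0 and 5 counts in sgCtrl and 13, 22 and 11 in sgITPR3) and 3 did not pass. The shares were 63.6% lower and 9.09% higher, against 11.9% and 11.6% of all genes. As this list was chosen with earlier results of these data known, its count is a description and no test of the route. CCL20 met the low-count filter through sgITPR3 alone and CCL2, a chemokine among the 7, in all 3 sgCtrl libraries and 1 of sgITPR3, so each was tested through the group where it is high. The CCL20 call ended without sgCtrl replicate 1, sgCtrl replicate 2 or sgITPR3 replicate 2 (edgeR adjusted p = 0.0533 to 0.115), and with a filter of 1 CPM in 3 libraries it was not tested. With the ALB covariate its log2 fold change was 4.14 against 2.41. LAMB3, PLAU and PLAUR, with the smallest p, fell with log2 fold changes of -2.12, -2.69 and -1.18. With the ALB covariate 6 of the 7 falls passed. IER3, named for this loss, was at -0.27 (edgeR adjusted p = 0.0506) against -0.43 without it. Of death receptor and necroptosis effectors, 3 of 10 tested genes were lower, 1 higher and 6 did not pass, shares of 30% and 10% against 11.9% and 11.6% of all genes. BID, which carries the signal of caspase 8 to mitochondria, fell from 68.9 ± 8.54 to 42.8 ± 1.97 CPM (log2 fold change -0.69, edgeR adjusted p = 7.44e-05). MLKL, the effector of necroptosis, fell from 18.2 ± 1.33 to 12.2 ± 0.508 CPM and FADD, the death domain adaptor, from 57.7 ± 7.27 to 42.04 ± 1.74 CPM. The gene that rose, named after its value was seen, was CASP8, from 19.9 ± 2.33 to 27.7 ± 2.38 CPM (log2 fold change 0.47, edgeR adjusted p = 0.00537). With the ALB covariate it did not pass (log2 fold change 0.40, edgeR adjusted p = 0.0729). In the stress kinase arm, 2 of 10 genes fell, 1 rose and 7 did not pass, and the share that passed, 30%, was near the 23.5% of all genes. JUN and MAP3K5 were lower (log2 fold changes -0.32 and -0.68) and MAP2K4 higher (0.38). The MAP3K5 call ended without sgCtrl replicate 1, sgCtrl replicate 3, sgITPR3 replicate 1 or sgITPR3 replicate 2 (edgeR adjusted p = 0.0895 to 0.134), and that of MAP2K4 without sgCtrl replicate 1 or sgITPR3 replicate 2 (edgeR adjusted p = 0.0642 to 0.0869). With the ALB covariate none of FADD, JUN, MAP3K5 and MAP2K4 passed, at log2 fold changes of -0.33, -0.18, -0.39 and 0.33 (edgeR adjusted p = 0.0527, 0.161, 0.385 and 0.146).

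Several of these genes sit next to each other, and neighbours did not always share a call. TNFRSF1A and LTBR, 32931 bases apart on chromosome 12, both fell (-0.55 and -0.58). TRAF3 and TNFAIP2, 211942 bases apart on chromosome 14, also both fell (-0.43 and -0.57), as did TNFSF9 and CD70 on chromosome 19 (-0.73 and -2.46). For BIRC3 and BIRC2 on chromosome 11 and for TNF and LTB on chromosome 6, 1 gene of the pair was called and the other was not.

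The hepatocyte transcript ALB differed between libraries, so the fit was repeated with its level as a covariate. Of the 22 member calls, 13 remained: TNF, TNFRSF9, BIRC3, TNFRSF12A, LTBR, TNFRSF1A, TNFRSF10B, TNFRSF10D, CHUK, TNFAIP2 and TNIP1 as lower, and TNFRSF11B and TRAF4 as higher. EDAR was called lower in addition (log2 fold change -0.52, edgeR adjusted p = 0.0261). TNFRSF9 had a log2 fold change of -2.15 in that fit, BIRC3 -0.64 and TNFRSF12A -0.44 (edgeR adjusted p = 0.0111). The other 9 calls ended: TNFSF9, TNFSF10, TNFRSF10A, NGFR, FAS, TRAF1, TRAF2, TRAF3 and TNFAIP3. All 9 kept their sign. The ALB level partly followed the groups, with only sgCtrl replicate 2 inside the sgITPR3 range. A call lost to the covariate therefore cannot be told apart from lower precision of the fit. TNFAIP3 was at -0.42 in that fit (edgeR adjusted p = 0.249) against -0.49 without the covariate, and TNFRSF10A at -0.24 against -0.42. Over all genes the calls also dropped, to 995 lower and 1012 higher from 1882 and 1835. Whether hepatocyte RNA has a part in any of these differences was not tested.

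**Figure D4:**
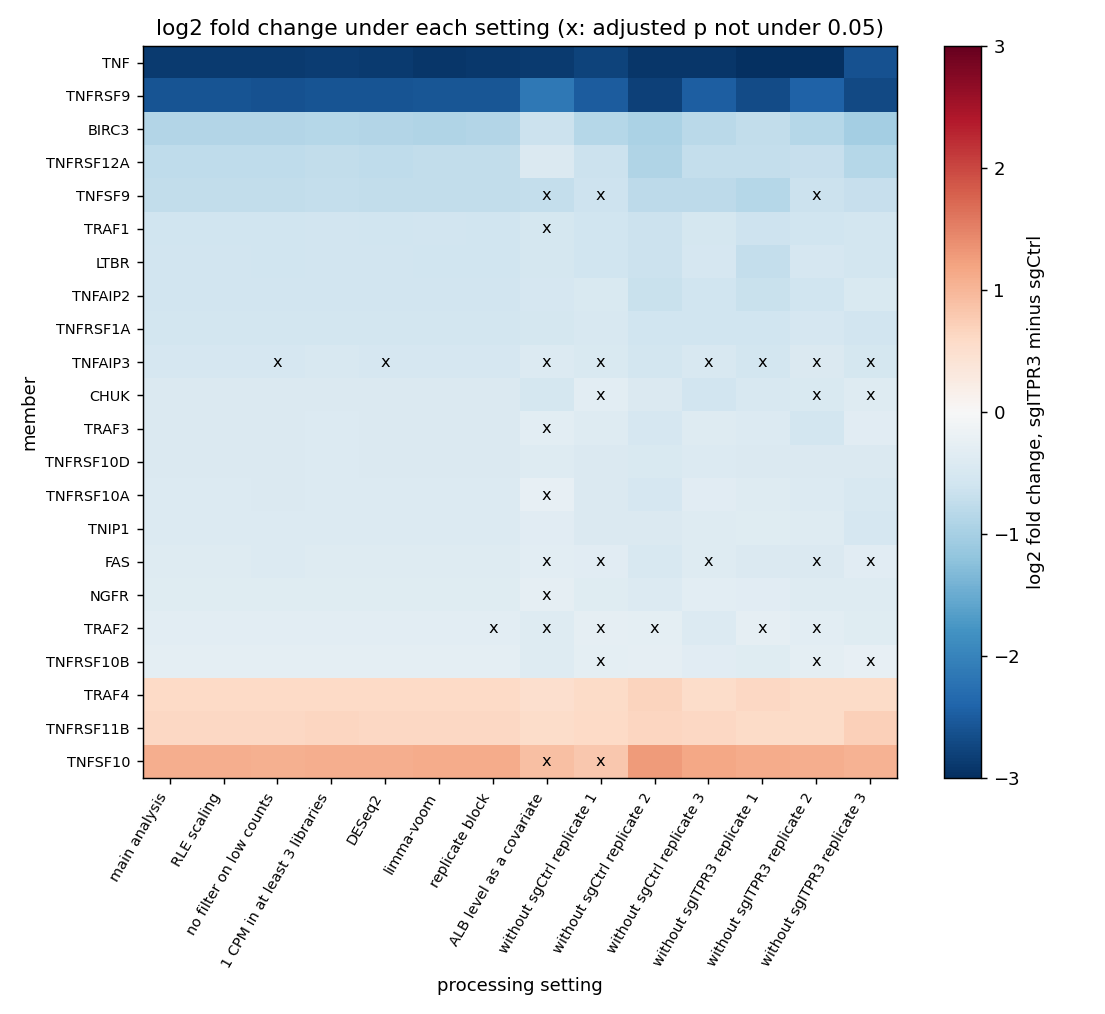
Log2 fold change of sgITPR3 minus sgCtrl (colour, blue lower and red higher) for the 22 members called (y axis) in the main analysis and the 13 alternatives (x axis); a cross marks an adjusted p that was not under 0.05. No member changes colour, and 11 members, from TNF and TNFRSF9 to TRAF4 and TNFRSF11B, have no cross.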

How the data were processed

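Values are the raw gene counts deposited by the authors, 1 column a library. Per the submitters' processing notes, reads were aligned to GRCh38 with STAR 2.6.0a, counted with featureCounts 1.6.3 and compared with DESeq2. The sources used here give neither the annotation release, nor whether strand was used, nor how mouse reads and reads with several alignments were handled. Symbols and positions came from the supplied gene tables and GENCODE 29 (GRCh38), and promoters from RefSeq (GRCh38.p14).

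Counts were tested with edgeR 4.0.16 in R 4.3.3 (quasi-likelihood F test, sgITPR3 against sgCtrl). filterByExpr with a minimum count of 10 kept 15804 genes, which hold 99.8% to 99.9% of each library, and TMM factors were 0.961 to 1.03. P-values were adjusted over these genes (Benjamini-Hochberg), and values under 0.05 passed. Each SE is the absolute log2 fold change over the square root of F. Depth sets the precision of low genes, and a floor of 3 counts covers counting error only. The procedure was tested on simulated data. Pairs of libraries in a group differed beyond sampling noise (chi-square per degree of freedom 6.07 to 11.4).

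The members and lists were chosen with earlier results of these data known. Members that passed or averaged at least 5 CPM are given by library, with up to 3 passing genes of each other list. Alternatives were RLE scaling, other filters, DESeq2 1.42.0, voom of limma 3.58.1, a replicate block, an ALB covariate and leaving out each library.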

Additional observations from a re-analysis of the deposited data

How the results depend on the processing

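The 19 lower and 3 higher member calls stayed within 1.5 times of these counts under RLE scaling, both other filters, DESeq2, limma-voom and the replicate block. Exceptions were the ALB covariate, with 12 lower members (995 lower and 1012 higher among all genes), and the fit without sgCtrl replicate 2, with 5 higher members. Without 1 library at a time, members numbered 13 to 18 lower and 2 to 5 higher, and all genes 1196 to 2140 lower and 1135 to 2121 higher; the all-gene counts were lowest without sgITPR3 replicate 2. Of the 22 called members, 11 kept their call in all 13 alternatives, and none changed sign. Signs did change, near 0, for 3 members that did not pass: RIPK1 with the ALB covariate (0.0014), MAP3K14 (-0.12 to 0.00032 over the fits without 1 library, above 0 without sgITPR3 replicate 2) and TRADD (-0.13 to 0.0019, above 0 without sgITPR3 replicate 3). The cause was not tested. With the replicate number as a block, 18 members were lower and 3 higher, and the TRAF2 call ended (edgeR adjusted p = 0.0502). Libraries of the same number did not deviate together in every pair (correlations -0.0496, 0.056 and 0.132), so the numbers were not taken as pairs. Low counts limit TNFSF10 and CD40, and kept 12 members from the test.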
